A study of Mus musculus with 19 samples.

Results

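Alyref and 7 other genes that carry out bulk mRNA export were followed through single mouse embryos at the morula and blastocyst stages. The 8 genes were chosen by name: the adaptors Alyref, Alyref2, Chtop, Fyttd1, Poldip3 and Zc3h11a, and the receptor subunits Nxf1 and Nxt1. Each has 1 row among the 53379 genes of the deposited table, and all 8 passed the filter on low values.

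The embryos came from in vitro fertilisation of B6D2F1 gametes and grew in KSOM medium. They were collected at 96 hpi (hours after insemination), each as its own polyA RNA library. Parents heterozygous for an Alyref deletion gave 5 morulae, of which 2 are Alyref KO and 3 are not, and 3 blastocysts, none of them KO. Parents heterozygous for a Gabpb1 deletion gave 5 morulae, of which 3 are labelled Gabpb1 KO and 2 are not, and again 3 blastocysts without KO. With 3 blastocysts of wild-type (WT) parents there are 19 embryos in 7 groups. Non-KO embryos are WT or heterozygous and the labels do not separate them. The KO labels were read from missing reads over the deleted region in the same libraries, and no KO embryo is a blastocyst, so KO embryos are compared with non-KO morulae of their own cross. The labels name no litter or culture day, so a difference between crosses and one between batches cannot be told apart.

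Messenger RNA leaves the nucleus bound to the heterodimer of NXF1 and NXT1, which passes through the nuclear pore. NXF1 binds RNA weakly by itself and is loaded by adaptor proteins, of which ALYREF, a part of the transcription-export complex TREX, is the best known. CHTOP, FYTTD1 (also called UIF), POLDIP3 (also called SKAR) and ZC3H11A are further adaptors or TREX-associated proteins, and ALYREF2 is a close relative of ALYREF encoded by a gene with a single exon.

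Alyref and Alyref2 are shown side by side because the call of each depends on reads that tell them apart. Alyref (ENSMUSG00000025134.2) lies on the minus strand at chr11:120592121-120598365 (GRCm38) and has 6 merged exons. Alyref2 (ENSMUSG00000060244.1) lies on the plus strand at chr1:171503478-171504750 and has 1 exon. Their coding sequences are 765 and 654 bases long, and 601 of 651 aligned bases are identical (92.3%). The 120 bases below come from the coding transcripts in GENCODE M21 (bases 316 to 435 of the Alyref coding sequence, bases 226 to 345 of that of Alyref2), with the 9 differing bases in capitals. In the genome they span chr11:120595999-120597685, introns included, and chr1:171503882-171504001.
Alyref: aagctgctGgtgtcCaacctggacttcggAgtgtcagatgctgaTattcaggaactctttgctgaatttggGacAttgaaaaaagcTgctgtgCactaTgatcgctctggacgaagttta
Alyref2: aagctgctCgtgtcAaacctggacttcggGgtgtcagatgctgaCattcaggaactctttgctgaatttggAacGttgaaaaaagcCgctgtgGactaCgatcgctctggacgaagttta

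The longest stretch identical between the coding sequences has 57 bases, and the first read of a pair has 50. Of 1224 windows of 50 bases in Alyref2 transcripts, 11 also occur in Alyref. Another 585 occur in B930036N10Rik, an antisense gene that covers 49.8% of the Alyref2 exon. The strand setting of the counting is not given in the sources used here, so Alyref2 counts cannot be separated from antisense reads. Of 3830 Alyref windows, 46 occur in Gm11246, a processed pseudogene on chromosome 4. Zc3h11a shares 65.2% of its windows with Gm38394, a gene on the same strand, and its values are uncertain for that reason. The 2 genes had similar counts, 332 to 1482 for Zc3h11a and 303 to 1496 for Gm38394 over the 19 embryos. In the Alyref KO morulae these were 332 and 657 for Zc3h11a and 329 and 665 for Gm38394. Zc3h11a values below may therefore be those of either gene. Chtop, Fyttd1, Poldip3, Nxf1 and Nxt1 share between 0 and 4.94% of their windows with other genes. Chtop lies at chr3:90498956-90509498, Poldip3 at chr15:83125978-83149384 and Zc3h11a at chr1:133619862-133661380, all on the minus strand. Fyttd1 lies at chr16:32877500-32908963, Nxf1 at chr19:8757073-8772475 and Nxt1 at chr2:148672601-148676027, all on the plus strand.

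The 66 bases before the start of both genes are shown because they hold the motif CCGGAAG, the core bound by GABP, the factor to which GABPB1 contributes a subunit, and by other ETS factors. The motif was searched on both strands from 250 bases before to 50 after each start in RefSeq promoters (GRCm38.p6), where 7 of the 8 genes matched. Alyref and Alyref2 hold it, and so do 8.86% of 32851 promoters. The sequences lie at chr11:120598366-120598431 (minus strand) and chr1:171503412-171503477 (plus strand), with the motif in capitals. The first 11 bases shown for Alyref also lie in the first exon of Anapc11, which runs the other way, and the whole stretch shown for Alyref2 lies in an exon of the antisense gene B930036N10Rik.
Alyref: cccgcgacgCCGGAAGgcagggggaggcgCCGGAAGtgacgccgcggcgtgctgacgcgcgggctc
Alyref2: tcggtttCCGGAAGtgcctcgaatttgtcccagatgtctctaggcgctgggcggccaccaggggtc
A match is a run of letters and not a measured binding site.

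Gene counts ranged from 7.49 to 31.5 M per embryo, and 23167 to 28300 genes had a count. Levels of a gene across embryos are given as CPM, its counts scaled to library size with TMM factors, and levels of different genes as FPKM, which also divides by gene length. The targeted gene Gabpb1 stood at 78.2, 259 and 151 CPM in the morulae labelled Gabpb1 KO and at 93.8 and 83.3 CPM in their non-KO counterparts, so its count per gene does not separate the label. The 10 trophectoderm markers summed to between 343 and 5261 CPM in morulae and between 5515 and 8923 CPM in blastocysts, and the sums were higher in Gabpb1 non-KO morulae (3304 to 5261) than in the other morulae. The 8 markers of cumulus cells summed to between 0.19 and 3.4 CPM. In whole embryos, fewer cells of a type and less RNA per cell cannot be told apart. Nothing in the labels says whether embryos shared parents, so p-values measure the spread between single embryos.

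Over the 14 embryos not labelled KO, Alyref was the most abundant of the adaptor mRNAs per length, at 61.6 ± 12.02 FPKM (SD, n = 14). Nxt1, the small subunit that stabilises NXF1, followed at 56.4 ± 10.5 FPKM, within the spread of Alyref. Nxf1, the subunit that binds RNA and the pore, stood at 19.9 ± 2.81 FPKM. Chtop was at 19.9 ± 3.21 FPKM, Fyttd1 at 15.2 ± 4.43 and Poldip3 at 14.6 ± 2.48, and the SD ranges of these neighbours overlapped. Zc3h11a followed at 8.04 ± 1.8 FPKM and Alyref2 at 2.9 ± 1.63 FPKM. Alyref2 rests on 15 to 85 counts per embryo in all 19, against 362 to 5860 for Alyref. Nxf1 was the steadiest between these embryos, with a CV of 14.1% of its CPM, and Alyref2 the most variable at 56.1%.

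Across the 7 groups the other members each had an order of their own. Nxt1 ran from 29.7 ± 11.4 CPM in the morulae labelled Gabpb1 KO (SD, n = 3) and 44.7 CPM in the Gabpb1 non-KO morulae to 82.3 ± 6.06 CPM in the Alyref KO morulae (SD, n = 2), with the Alyref non-KO morulae at 58.4 CPM and the blastocyst groups from 62.0 to 72.2 CPM. Fyttd1 was lowest in the Alyref non-KO morulae, at 62.1 ± 5.26 CPM (SD, n = 3), and highest in the Gabpb1 non-KO morulae, at 129 ± 14.1 CPM (SD, n = 2). Chtop ran from 58.4 CPM in the morulae labelled Gabpb1 KO to 89.8 CPM in the Alyref KO morulae, and Zc3h11a from 38.4 CPM in the Alyref non-KO morulae to 58.3 CPM in the WT blastocysts. Poldip3 stayed between 69.2 and 89.6 CPM and Nxf1 between 107 and 124 CPM, where neighbouring groups overlapped. Alyref2 group means lay between 2.37 and 6.28 CPM, the highest in the Gabpb1 cross blastocysts, at 3.46, 10.1 and 5.33 CPM.

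**Figure D1:**
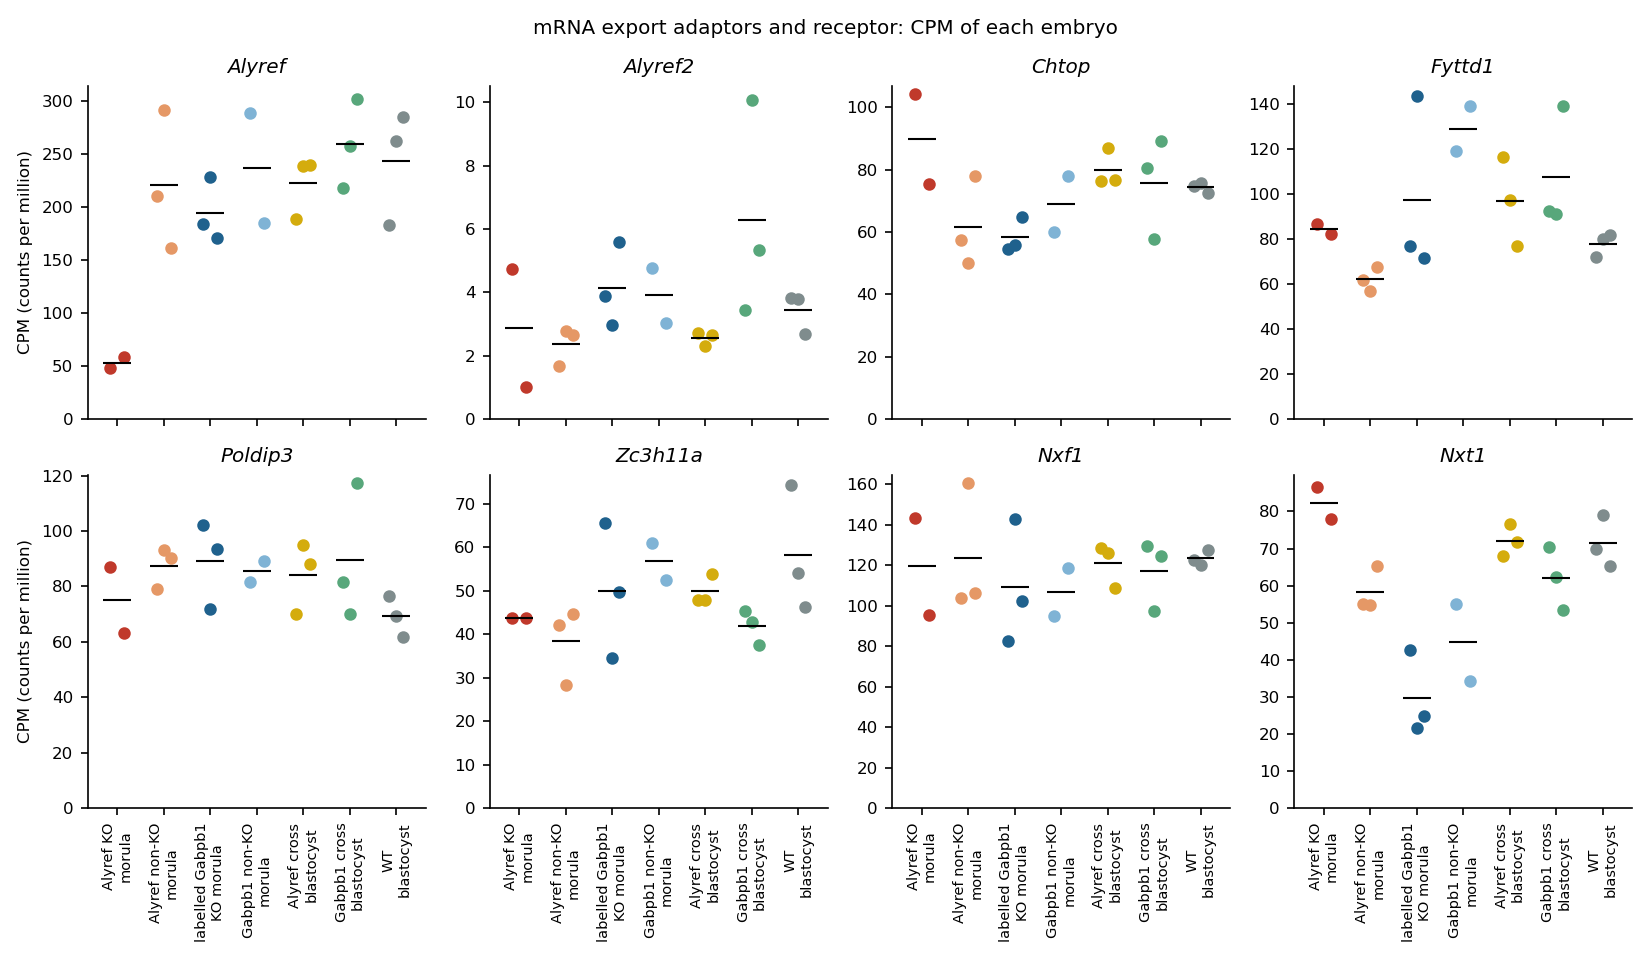
CPM (linear axis from 0) of the 8 genes in each of the 19 embryos by group, with 1 point per embryo and a line at the group mean. The 2 Alyref KO points, at 47.8 and 58.5 CPM, lie below all other Alyref points, and 2 of the 3 morulae labelled Gabpb1 KO hold the lowest Nxt1 points, at 21.5 and 24.8 CPM.

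Alyref mRNA stood at 47.8 and 58.5 CPM in the 2 Alyref KO morulae. The 3 non-KO morulae of the cross had 210.3, 291 and 161 CPM. In the Gabpb1 cross it was 184, 228 and 171 CPM in the morulae labelled KO and 288 and 185 CPM in the others. Every KO value is below every other embryo, and the groups do not overlap. Blastocysts had 189, 239 and 239 CPM in the Alyref cross, 218, 257 and 301 CPM in the Gabpb1 cross and 183, 262 and 284 CPM with WT parents. By group mean the order was Gabpb1 cross blastocysts (259 CPM), WT blastocysts (243), Gabpb1 non-KO morulae (236), Alyref cross blastocysts (222), Alyref non-KO morulae (221), morulae labelled Gabpb1 KO (194) and Alyref KO morulae (53.1). All neighbours in that order overlap except the last pair.

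The first comparison asked how loss of Alyref leaves the export mRNAs of the morula. The KO mean for Alyref was 24.0 ± 3.42% of the non-KO mean by CPM (SD, n = 2) and 26.0% per ERCC spike-in count. On the log2 scale Alyref fell by 2.05 (SE 0.30), with an adjusted p of 0.0227 in edgeR's quasi-likelihood test with Benjamini-Hochberg adjustment, the test behind every adjusted p below. Alyref was the only one of the 8 genes called, against 0.228% of 18410 genes tested. This value is a check of the label and not independent of it. What remains amounts to 362 and 877 counts, and counts per gene do not show which exons they come from. The call was lost when KO morula 1 (adjusted p 0.140), KO morula 2 (0.151) or non-KO morula 1 (0.065) was left out, with fold changes from -2.24 to -1.79 over all 5 such fits. It was also lost with counts scaled to ERCC (-1.95, adjusted p 0.893) and in a fit of the compared groups alone (-2.07, adjusted p 0.559).

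Alyref2, the close relative of Alyref, did not pass the test. Its levels were 4.75 and 1.00 CPM in the 2 KO morulae, from 36 and 15 counts, and 1.68, 2.78 and 2.65 CPM in the 3 non-KO morulae, from 31, 33 and 41 counts. One KO value is above and the other below all 3 non-KO values. The exact 95% Poisson intervals of the KO counts, 25.2 to 49.8 and 8.4 to 24.7, cover counting error only. On the log2 scale the KO minus non-KO value was 0.25 (SE 0.57, 95% interval -0.96 to 1.45, adjusted p 0.916). It was -1.23 without KO morula 1 and 0.98 without KO morula 2. In FPKM, Alyref2 came to 29.99% and 5.16% of Alyref in the KO embryos and to between 2.41 and 4.96% in the non-KO morulae of the cross. The antisense gene B930036N10Rik was at 3.3 and 16.3 CPM in the KO morulae and at 7.001 to 7.98 CPM in the non-KO morulae.

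Chtop, whose protein binds NXF1 together with ALYREF, had 104 and 75.4 CPM in the KO morulae. The non-KO morulae had 57.4, 49.9 and 77.8 CPM. The groups overlap, and the log2 fold change of 0.54 (SE 0.23) gave an adjusted p of 0.352. Fyttd1, an adaptor that binds both RNA and NXF1, had 86.9 and 82.2 CPM against 61.7, 57.1 and 67.6 CPM. Both KO values lie above all 3 non-KO values, yet the log2 fold change of 0.44 (SE 0.28) had an adjusted p of 0.575. Groups apart with the KO higher were found for 2 of the 8 genes, Fyttd1 and Nxt1, and for 12.5% of all genes tested. Poldip3, which links the exon junction and TREX to translation, had 87.0 and 63.1 CPM in KO and 79.1, 93.1 and 90.3 CPM in non-KO morulae. Zc3h11a, a zinc finger protein that binds TREX, had 43.8 and 43.8 CPM in KO and 42.2, 28.3 and 44.7 CPM in non-KO morulae. Both overlap between the groups, with log2 fold changes of -0.22 (SE 0.24, adjusted p 0.777) and 0.19 (SE 0.27, adjusted p 0.845).

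Of the receptor pair, Nxt1 had 86.6 and 78.0 CPM in the KO morulae and 55.0, 54.8 and 65.3 CPM in the non-KO morulae. Its KO values are the higher ones, and the log2 fold change was 0.50 (SE 0.27), which did not pass (adjusted p 0.487). Nxf1 had 143 and 95.3 CPM against 104, 161 and 106 CPM, so that they overlap (log2 fold change -0.05, 95% interval -0.60 to 0.50). The ratio of Nxf1 to Nxt1 FPKM was 0.269 ± 0.0575 (SD, n = 2) in the KO morulae. In the non-KO morulae it was 0.401 ± 0.129 (SD, n = 3). Without Alyref, the other 7 genes had a median log2 fold change of 0.25, beside -0.04 over all genes tested, and 5 of the 7 were above 0, beside 46.5% of all genes. The summed oocyte mRNAs were at 14.2 to 20.7 CPM in these KO morulae and at 47.2 to 65.7 CPM in the non-KO morulae. The same sum was higher in blastocysts, at 82.1 to 187 CPM, and of the 8 mRNAs in it only Zp3 and Ooep passed the filter. The part of the oocyte mRNAs in the values of the export genes was not tested.

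**Figure D2:**
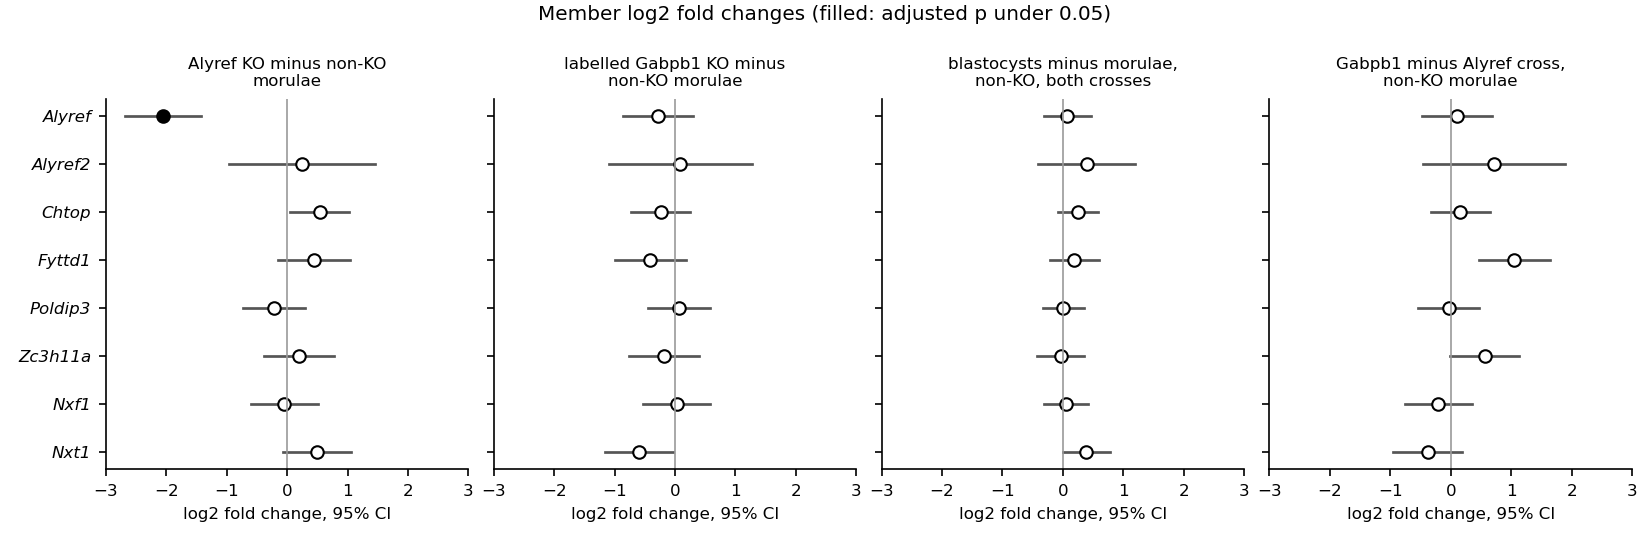
Log2 fold changes (points) with 95% intervals (lines) of the 8 genes in 4 comparisons; a filled point is called at an adjusted p under 0.05. Alyref in the Alyref KO comparison, at -2.05, is the only filled point; Fyttd1 between the crosses, at 1.05, comes nearest to it in size.

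Per length, Alyref made up 15.2 and 22.2% of the summed mRNA of the 6 adaptors in the KO morulae. In the non-KO morulae of the cross it made up 53.2, 62.0 and 42.1%. The other 5 groups had mean shares from 45.8 to 51.8%. The sum of all 6 adaptors was 75.2 ± 9.22 FPKM (SD, n = 2) in the KO morulae. It was 108 ± 12.1 FPKM (SD, n = 3) in the non-KO morulae. The 5 adaptors other than Alyref summed to 69.2 and 53.4 FPKM in KO and to 48.2, 46.4 and 57.9 FPKM in non-KO morulae, and these ranges overlap.

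**Figure D3:**
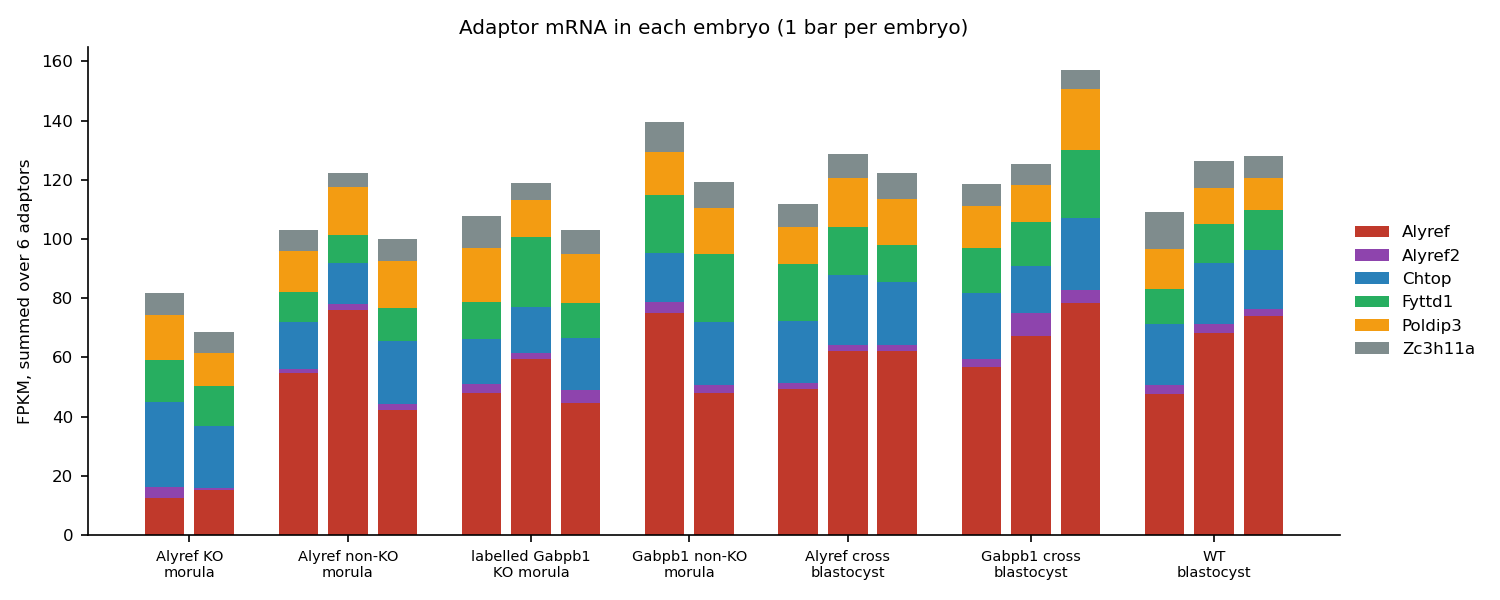
FPKM of the 6 adaptors stacked, with 1 bar per embryo and embryos ordered by group. The 2 Alyref KO bars end at 81.7 and 68.7 FPKM, below the other 17 bars, and differ from them mainly in the Alyref segment.

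Gm11246 tracked Alyref from embryo to embryo. It was the gene most like Alyref over the 14 embryos not labelled KO (Pearson r 0.83 and Spearman rho 0.86 on log2(CPM + 1), of 8367 genes compared, with library and depth shared), and its windows shared with Alyref are described above. The KO embryos took no part in that choice. There Gm11246 had 6 and 11 counts, or 0.792 and 0.734 CPM, while the non-KO morulae had 2.06, 3.21 and 1.75 CPM. The KO values are below every other embryo, but the log2 fold change of -1.61 (SE 0.42) did not pass the test (adjusted p 0.127). Its counts came to 1.25 and 1.66% of those of Alyref in the KO morulae and to between 0.935 and 1.43% in the other 17 embryos.

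The 4 next genes by likeness were Bag5 (r 0.82), a co-chaperone, Mis18a (0.82), a centromere licensing factor, Cox7a2l (0.82), an assembly factor of respiratory supercomplexes, and Gatd1 (0.79). In the Alyref KO comparison their log2 fold changes were -0.08, 0.08, -0.96 and 0.52, and none was called. Cox7a2l had the largest of these, at 40.7 and 58.2 CPM in KO against 104, 104 and 80.5 CPM in non-KO morulae (SE 0.23, adjusted p 0.101). The r of the other 7 genes of the export set with Alyref ran from -0.36 to 0.36. Ranked by Spearman rho, 3 of the 5 genes most like Alyref were the same. The genes most like Alyref2 were Gm10801 (r 0.86), Gm21738, Gm10800, Ell3 and Tnfrsf9. Gabpb1 cross blastocyst 2 was highest in Alyref2, and without it the r of Gm10801 was 0.66. By Spearman rho only 1 of these 5 genes, Tnfrsf9, was again among the 5 most like Alyref2.

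**Figure D4:**
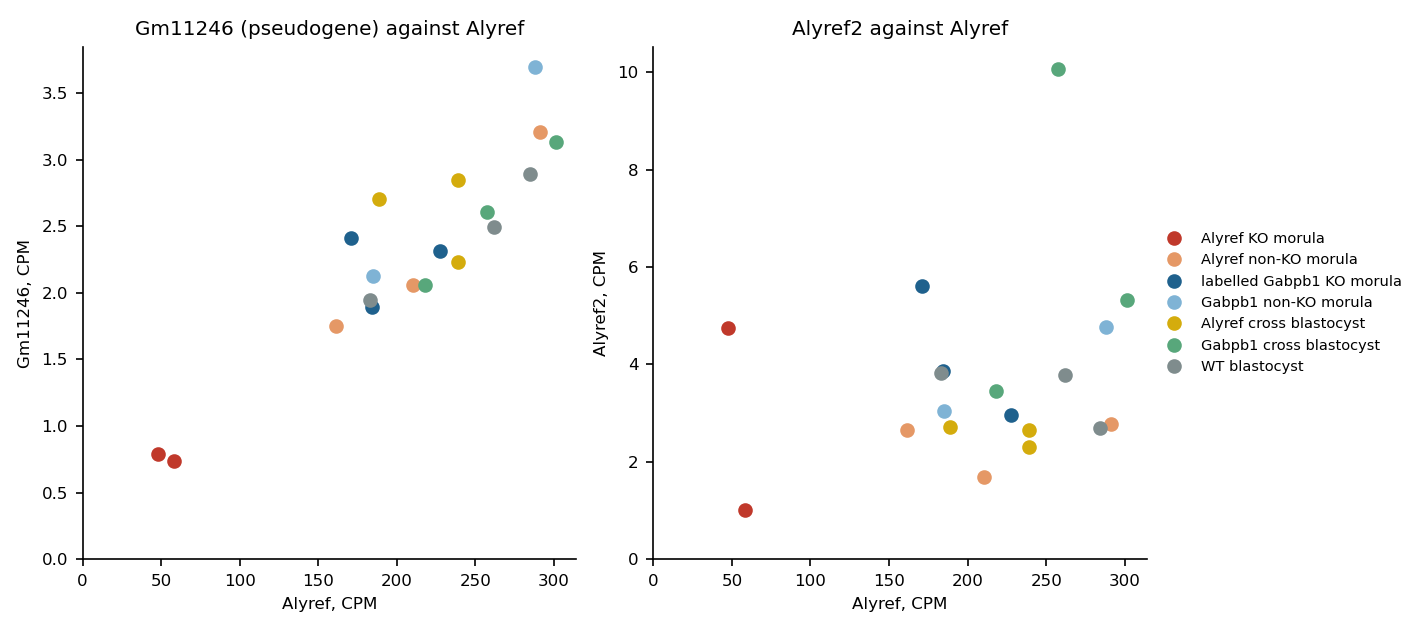
Gm11246 (left) and Alyref2 (right) against Alyref in CPM, with 1 point per embryo. Gm11246 falls along a line with Alyref and is below 0.8 CPM in both KO embryos, while Alyref2 lies at 4.75 and 1.00 CPM in them and has its highest value, 10.1 CPM, in a Gabpb1 cross blastocyst.

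The second comparison asked the same of the morulae labelled Gabpb1 KO. None of the 8 genes was called, against 1.65% of all genes tested. Nxt1 came closest, with 42.7, 21.5 and 24.8 CPM in the labelled embryos and 55.1 and 34.4 CPM in the non-KO morulae, so that the groups overlap. Its log2 fold change was -0.59 (SE 0.27, p 0.0415 unadjusted, adjusted p 0.246). Without the morula labelled Gabpb1 KO 1 it was -0.95 with an adjusted p of 0.0352. That fit called 966 of all genes, beside 303 in the main fit. The embryo left out holds 42.7 CPM, and the Nxf1 to Nxt1 ratio in the 3 labelled embryos was 0.36, 1.24 and 0.77. The summed trophectoderm markers were 343 to 3173 CPM in the labelled embryos and 3304 to 5261 CPM in the non-KO morulae, and their part in the Nxt1 values was not tested.

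Alyref itself, whose promoter holds CCGGAAG at 57 and 37 bases before the start, was not called in that comparison. Its log2 fold change was -0.28 (SE 0.27, 95% interval -0.86 to 0.29, adjusted p 0.598), and the group means were 194 and 236 CPM. Alyref2 had 3.87, 2.96 and 5.60 CPM against 4.77 and 3.04 CPM, and the 2 groups overlap (log2 fold change 0.09, 95% interval -1.09 to 1.27). Fyttd1 had 77.1, 144 and 71.5 CPM against 119 and 139 CPM, where one labelled embryo lies above both others (log2 fold change -0.41, SE 0.28, adjusted p 0.450). Chtop (-0.24), Zc3h11a (-0.18), Poldip3 (0.06) and Nxf1 (0.03) had adjusted p from 0.604 to 0.967.

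The difference between the 2 KO effects, Gabpb1 minus Alyref, was tested as an interaction. Alyref was called, with a difference of 1.77 on the log2 scale (SE 0.40, adjusted p 0.0484), against 0.907% of all genes. The Alyref KO effect within it uses the gene that defines the label, so this call is not independent of the label. Nxt1 had a difference of -1.09 (SE 0.38), Chtop of -0.78 (SE 0.33) and Fyttd1 of -0.85 (SE 0.40). Their adjusted p were 0.169, 0.246 and 0.292, so none of them was called in the main fit. Nxt1 was called in 1 of 19 alternative fits, without the morula labelled Gabpb1 KO 1 (-1.44, adjusted p 0.0284). That fit called 486 of all genes, beside 167 in the main fit. The Alyref difference was called in 5 of 19 alternative fits and lay between 1.14 and 2.13 in all of them.

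Between stages, none of the 8 genes was called in the mean of both crosses, against 4.36% of all genes. Nxt1 had the lowest p, with a blastocyst minus morula difference of 0.39 (SE 0.18, adjusted p 0.200). Its non-KO morulae had 55.0, 54.8 and 65.3 CPM in the Alyref cross and 55.1 and 34.4 CPM in the Gabpb1 cross, and its blastocysts 68.0, 76.8 and 71.7, and 70.3, 62.3 and 53.4 CPM. Chtop followed with 0.26 (SE 0.16), Alyref2 with 0.39 (SE 0.38) and Fyttd1 with 0.19 (SE 0.19), and Alyref (0.07), Nxf1 (0.05), Poldip3 (0.01) and Zc3h11a (-0.03) were close to 0. With counts scaled to the ERCC spike-in, the median of all genes moved to -0.61 and all 8 members took negative values.

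Fyttd1 differed most between the crosses at the morula stage. In blastocysts its values overlapped, at 92.5, 91.2 and 139 CPM in the Gabpb1 cross and 117, 97.2 and 76.7 CPM in the Alyref cross. In non-KO morulae Fyttd1 had 119 and 139 CPM in the Gabpb1 cross. The Alyref cross morulae had 61.7, 57.1 and 67.6 CPM, with no overlap. That is 1.05 on the log2 scale (SE 0.28), and with an adjusted p of 0.0596 it was not called, against 1.86% of all genes. It was called by DESeq2 (adjusted p 0.0118), by limma with embryo weights (0.0145) and without Alyref non-KO morula 3 (0.0328). Over all genes these fits called 1726, 2711 and 2435, beside 342 in the main fit. Zc3h11a, at 61.1 and 52.4 against 42.2, 28.3 and 44.7 CPM, and Alyref2 were also higher in both Gabpb1 cross morulae, 3 of 8 genes beside 17.9% of all genes. Their adjusted p were 0.230 and 0.454. The trophectoderm markers given above differ between these groups in the same direction, and their part in the Fyttd1 values was not tested.

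For blastocysts minus morulae of the same age, Fyttd1 had a log2 difference of 0.64 (SE 0.25, adjusted p 0.0990) in the Alyref cross. There 13% of all genes were called and no member was. Fyttd1, Nxt1 and Zc3h11a were higher in all 3 blastocysts than in all 3 morulae of that cross, beside 19.6% of all genes. In the Gabpb1 cross the Fyttd1 value was -0.26 (SE 0.28), Zc3h11a was lower in all 3 blastocysts than in both morulae, beside 11.7% of all genes, and 0 of 18410 genes were called by edgeR (1237 at an unadjusted p under 0.05, and 62 by DESeq2). The test of the stage difference between crosses gave -0.90 (SE 0.38, adjusted p 0.326) for Fyttd1 and -0.81 (SE 0.36, adjusted p 0.344) for Zc3h11a, against 0.00543% of all genes called by edgeR. That is 1 gene, while DESeq2 called 353, limma 1137 and edgeR 702 without Alyref non-KO morula 3. Compared with WT blastocysts, non-KO blastocysts of the Alyref cross and of the Gabpb1 cross had no called member, and edgeR called 0% of all genes in both (541 and 1123 genes at an unadjusted p under 0.05, and 24 and 41 by DESeq2). These 2 comparisons share the WT blastocysts. Chtop lay above all WT values in the Alyref cross, at 76.4, 87.1 and 76.6 against 74.8, 75.6 and 72.7 CPM, where the groups were apart for 12.2% of all genes. In the Gabpb1 cross, where this held for 12.8%, Fyttd1 lay above them (92.5, 91.2 and 139 against 72.2, 80.1 and 81.7 CPM) and Zc3h11a below them (45.4, 42.8 and 37.5 against 74.4, 54.2 and 46.4 CPM). The log2 differences were 0.11 (SE 0.21) for Chtop, 0.46 (SE 0.25) for Fyttd1 and -0.48 (SE 0.24) for Zc3h11a.

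Of 41 other genes of the export pathway, listed by role, 40 passed the filter: the THO core of TREX, the helicases Ddx39b and Ddx39, cap- and exon-junction-binding proteins, the TREX-2 complex, pore and release factors, and other export receptors. None was called in the Alyref KO comparison by edgeR (10 at an unadjusted p under 0.05, beside 12.1% of all genes). DESeq2 called 1 of the 40 and 482 of all genes. Of the 40, 15 had values above 0 and 25 below, with a median log2 fold change of -0.16 beside -0.04 over all genes. The 4 with the smallest p were Cetn2, a centrin of TREX-2 (1.42, SE 0.37, adjusted p 0.127), Xpo1, the export receptor CRM1 (-0.61, SE 0.20, 0.211), Thoc2, the scaffold of THO (-0.90, SE 0.31, 0.232), and Magohb, an exon junction protein (0.70, SE 0.27, 0.286). Cetn2 stood at 28.0 and 43.8 CPM in KO and at 11.02, 9.11 and 20.1 CPM in non-KO morulae. Thoc2 stood at 120.4 and 108 CPM in KO and at 227, 170.3 and 243 CPM in non-KO morulae. In both cases the groups do not overlap, which held for 13 of the 40 genes and 24.9% of all genes.

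None of the 40 was called by edgeR in the morulae labelled Gabpb1 KO either. There 10 had an unadjusted p under 0.05, beside 18.9% of all genes. DESeq2 called 1 of the 40 and 1294 of all genes. Values above 0 were found for 26 of the 40, beside 52.9% of all genes. The smallest p belonged to Nup214, a cytoplasmic pore protein, at 66.5, 79.8 and 62.8 CPM against 35.6 and 30.6 CPM (log2 fold change 1.08, SE 0.29, adjusted p 0.0735). The groups were apart for 17 of the 40 genes and for 32.2% of all genes. Thoc6 (-0.78, SE 0.27), Nup153 (0.75, SE 0.28) and Xpo1 (0.52, SE 0.20) followed, with adjusted p of 0.144, 0.176 and 0.182.

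In the Alyref cross edgeR called 7 of the 40 genes by stage. Blastocysts were the higher group for 3 of them and the lower for 4, beside 5.62% and 7.43% of all genes. Nxf7, an NXF family member, had 25.2, 54.3 and 34.1 CPM in blastocysts and 0.434, 1.18 and 8.22 CPM in morulae (log2 difference 3.52, SE 1.10, adjusted p 0.0459). Nxt2, a relative of Nxt1, had 15.1, 5.89 and 9.49 CPM in blastocysts and 26.2, 37.1 and 29.1 CPM in morulae (-1.59, SE 0.45, adjusted p 0.0336). Nxf2, another NXF family member, held 1, 0 and 0 counts in these blastocysts and 87, 487 and 28 counts in the morulae. Against a floor of 3 counts in each library it was at least 83.9-fold lower in blastocysts, or 17.3-fold without the highest morula. The same gene was called in the mean of both crosses (adjusted p 0.0348), and all 6 blastocysts of the Gabpb1 and WT groups had 0 counts. The other called genes were Xpo1 (-0.62), Ddx19b, a release helicase (-0.96), Magohb (1.03) and Cetn2 (1.40). The 7 calls, beside 2402 over all genes, fell to 0 without Alyref cross morula 2, blastocyst 1 or blastocyst 2, where 346, 423 and 442 of all genes were called. They fell to 1 without morula 1 and to 2 without blastocyst 3 (864 and 1104 of all genes), and came to 16 without morula 3 (4560 of all genes). In the mean of both crosses the count of 1 fell to 0 in 8 of 11 fits that left out an embryo, and it was 7 without Alyref cross morula 3. Over all genes the calls went from 803 to 2930 without that morula, and to 2 without Gabpb1 non-KO morula 2.

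**Figure D5:**
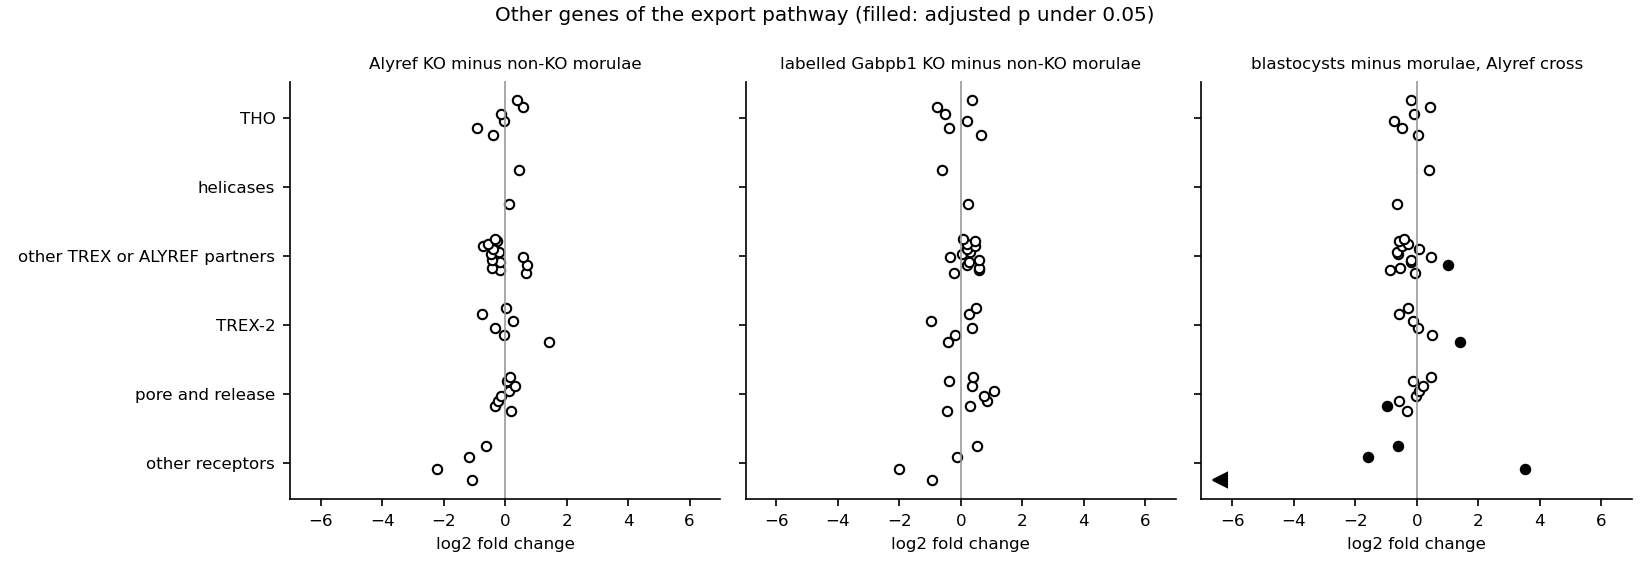
Log2 fold changes of the 40 other export genes by role in 3 comparisons, with 1 point per gene; a filled symbol is called at an adjusted p under 0.05, and the triangle is Nxf2, drawn at its bound. The 7 filled symbols are all in the stage comparison of the Alyref cross, 5 of them among the other receptors and the pore and release factors.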

How the data were processed

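Messenger RNA of 19 single embryos was measured by sequencing. The authors deposited 1 table of read counts per gene for all embryos; its name speaks of FPKM, but its values are whole-number counts. Per the submitters' processing notes, Trimmomatic, Trim Galore, cutadapt, STAR and featureCounts were used with mm10; versions and the strand setting are not given in the sources used here. FPKM and CPM were computed here from the counts and the deposited gene lengths. Depth was 7.49 to 31.5 M gene counts per embryo, and 92 ERCC spike-in rows stayed out of library sizes.

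Genes at 1 FPKM or more in 2 or more embryos (18410) were fitted with edgeR 4.0.16 in R 4.3.3 (TMM, quasi-likelihood F test, 1 mean per group over all 19 embryos). P-values were adjusted by Benjamini-Hochberg over all genes tested and called under 0.05. "Apart" means that the ranges of 2 groups do not overlap. DESeq2 1.42.0 and limma 3.58.1 served as alternatives, beside other scalings, filters, covariates and leaving out each embryo. The fit was tested on simulated counts. Likeness was ranked by Pearson's r of log2(CPM + 1) over 14 embryos not labelled KO, among genes of at least 5 mean FPKM, and the 5 highest genes are named. All 8 members are named in the 2 KO comparisons and the mean stage comparison, and only some of them in the others. Of 41 listed pathway genes, the 4 with the smallest p are named in the 2 KO comparisons. Those called are named for the stages in the mean of both crosses and in the Alyref cross. Pathway genes are not named for the other comparisons. Members and lists were chosen with earlier results of these data known.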

Additional observations from a re-analysis of the deposited data

Results flagged for a closer look

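Alyref differed between the KO comparisons by 1.77 on the log2 scale (Gabpb1 effect minus Alyref effect, SE 0.40, edgeR adjusted p 0.0484), and a test of the difference itself picked it out. Its effect was -2.05 for the Alyref KO and -0.28 for the morulae labelled Gabpb1 KO, and both Alyref KO values lay below all 3 non-KO values, while the groups overlapped in the other comparison. The first effect uses the gene that defines the label, so the difference is not independent of the label either. Over the alternatives the adjusted p ran from 0.00359 to 0.964, and the call was made in 5 of 19.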

How the results depend on the processing

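Of the 8 members, the 1 called in the Alyref KO comparison (Alyref) became 0 with ERCC scaling (-1.95, adjusted p 0.893) and with the compared groups alone (-2.07, adjusted p 0.559); the cause was not tested. Leaving out embryos gave 0 to 1 called for either KO comparison, 0 to 2 for the difference between the KO effects and 0 to 1 between the crosses' non-KO morulae. The difference between the KO effects gave 0 with DESeq2 size factors, ERCC scaling, the filterByExpr filter, no filter, the compared groups alone and the replicate block; the cause was not tested. Between stages limma with embryo weights called 1 member (Nxt1) in the mean and 2 (Chtop and Fyttd1) in the Alyref cross, where it called 4324 and 7262 of all 18410 genes. Between the crosses' non-KO morulae DESeq2 and limma each called 1 member (Fyttd1), and 1726 and 2711 of all genes.

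These log2 fold changes took the other sign. In the Alyref KO comparison Nxf1 was 0.057 with ERCC scaling and 0.068 with limma, and ran from -0.37 to 0.20 as embryos were left out, while Alyref2 ran from -1.23 to 0.98. In the morulae labelled Gabpb1 KO, ERCC scaling, which moved the median of all genes to -0.40, gave -0.36 for Alyref2, -0.30 for Poldip3 and -0.61 for Nxf1. No filter gave -0.019 for Poldip3 and -0.047 for Nxf1, filterByExpr -0.016 for Nxf1 and a covariate of Y-linked mRNA -0.033 for Nxf1. Leaving out embryos there gave -0.57 to 0.072 for Alyref, -0.21 to 0.45 for Alyref2, -0.047 to 0.18 for Poldip3, -0.43 to 0.0059 for Zc3h11a and -0.22 to 0.20 for Nxf1. Between stages ERCC scaling, which moved the median of all genes to -0.61, gave -0.47 for Alyref, -0.22 for Alyref2, -0.39 for Chtop, -0.46 for Fyttd1, -0.59 for Poldip3, -0.48 for Nxf1 and -0.20 for Nxt1. No filter gave 0.013 for Zc3h11a, the Y-linked covariate -0.0049 for Nxf1 and the replicate block -0.023 for Poldip3. Leaving out embryos between stages gave -0.073 to 0.25 for Alyref, -0.11 to 0.094 for Poldip3, -0.10 to 0.029 for Zc3h11a and -0.023 to 0.19 for Nxf1.

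For embryos with the same number in different groups, deviations from the group mean had correlations between -0.16 and 0.17. With 2 or 3 embryos a group, such values cannot exclude a shared litter or day, so pairing is unknown. Alyref stayed called with the replicate block (-2.05, adjusted p 0.0365). Over all genes, calls ran from 0 to 841 around 42 for the Alyref KO (8 with the block), from 0 to 1294 around 303 for the labelled Gabpb1 KO, from 0 to 888 around 167 for their difference, from 2 (without Gabpb1 non-KO morula 2) to 4324 (limma) around 803 between stages, from 24 to 7262 around 2402 between stages of the Alyref cross, from 0 to 1137 around 1 for the stage difference between crosses and from 0 to 2711 around 342 between non-KO morulae. Alyref2 rests on 15 to 85 counts per embryo and 2 or 3 embryos a group, and its interval in the Alyref KO comparison spans -0.96 to 1.45.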
